A study of Gallus gallus with 2 samples.

Results

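ST18, MYT1, ONECUT1, ONECUT2, INSM1, EBF1, EBF2 and EBF3 are transcription factors that newborn neurons switch on after the proneural genes, and their signals were followed in the chick forebrain after Notch signalling had been blocked. They were chosen by gene symbol from the deposited annotation of the array, with their difference between the conditions already known. This difference is therefore described here and not tested for them, and their calls in the fit over all probes are no evidence. Of the 8 genes named, 6 had a probe, which gave 12 of the 43603 probes outside the control spots. No probe matched ONECUT2 or INSM1, and no value can be given for either. The ONECUT1 probe carried no symbol in the authors' report, and it was named through their second table and through its description as a one cut homeobox gene. The authors named that table for significant fold changes between these conditions, so the naming of this probe may not be free of the contrast.

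Chick embryos from Isa Brown eggs, with no allele or transgene named, were taken at Hamburger and Hamilton stage 10 (HH10) and kept for 16 hours in roller culture with 40 µM DAPT, an inhibitor of the gamma-secretase that releases the active part of the Notch receptor, or with dimethyl sulfoxide (DMSO), its solvent. At about HH13 the rostral head was dissected, which by GEO's design text held the anterior forebrain, the optic vesicles and the tissue lying over them, and which the methods call the prosencephalon, with the primordium of the hypothalamus in it. RNA of 5 pooled embryos was hybridized to each one-colour Agilent array, and 4 arrays were made per condition. Arrays 1 and 2 of both conditions lay on slide 1, and arrays 3 and 4 on slide 2. Within a slide DMSO always took positions 1 and 3 and DAPT positions 2 and 4, so that position and treatment cannot be told apart.

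Notch signalling holds neural progenitors back from differentiation through the HES and HEY repressors, which keep proneural genes such as the neurogenins silent in most cells at any moment. Cells that escape this lateral inhibition leave the cell cycle and pass through a series of transcription factors before they make neurofilaments, axonal proteins and secretory granules. The EBF helix-loop-helix factors, the Onecut homeodomain factors, the zinc finger proteins MYT1, ST18 and INSM1 and the NHLH genes are known for acting between the dividing progenitor and the young neuron.

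Each value below is a log2 signal minus the median of its array, so that 0 is the middle of all spots and a difference of 1 is a doubling on the log2 scale. The unscaled median signal was 177.6 to 353.8 intensity units, with the highest on DMSO array 3, and between 67.8% and 80.8% of spots per array were well above background. All 16 measured genes of a list of 20 forebrain genes were bright enough to be fitted, that is, well above background on each array of DMSO, of DAPT or of both, whereas 3 of the 7 measured midbrain and hindbrain genes were. Of the 12 member probes, 11 were well above background on all 8 arrays, and none owed its place in the analysis to 1 condition alone. The exception was probe 2 of EBF2, which was well above background on 2 DMSO and 3 DAPT arrays and was left out of the fit. Unscaled signals of the 11 probes lay between 38.0 and 509.8 intensity units. The precision of every value is limited by the 4 arrays per condition. RNA came from whole pieces of tissue, in which fewer cells of a type and less RNA per cell cannot be told apart.

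ST18 is a zinc finger protein of the MYT family. Its probe 1 read -1.30, -1.19, -0.92 and -1.05 with DMSO, in the order of arrays 1 to 4, which all lists of values follow. With DAPT it read 0.19, 0.26, 0.34 and 0.34. Every DAPT array was above every DMSO array, and 1.11 lay between the lowest DAPT and the highest DMSO array. The means were -1.11 ± 0.17 in DMSO and 0.28 ± 0.073 in DAPT (SD, n = 4), a log2 difference of 1.40 with a standard error of 0.16, or 2.64-fold. The second ST18 probe read -2.18, -2.21, -1.74 and -1.80 in DMSO and -0.53, -0.64, -0.29 and -0.46 in DAPT. It gave a log2 difference of 1.50 (SE 0.18), or 2.83-fold, again without overlap of the groups. Both probes thus placed all DAPT arrays more than 1 log2 unit above all DMSO arrays, with a smaller spread in DAPT than in DMSO.

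MYT1, the founding member of the same family, has been shown in Xenopus to let cells differentiate in spite of lateral inhibition. Its only probe read -0.97, -1.04, -1.46 and -1.71 in DMSO and -0.010, -0.71, -0.32 and -0.57 in DAPT. The groups did not overlap, but the lowest DAPT array, array 2, stood only 0.26 above the highest DMSO array, array 1. The log2 difference was 0.89 (SE 0.23), or 1.86-fold. The other relative with a probe was MYT1L, a factor able to help turn mouse fibroblasts into neurons. Of its 4 probes, 1 was well above background throughout. It read -0.65, -0.88, -1.36 and -1.71 in DMSO and -0.57, -0.55, -0.45 and -0.86 in DAPT, a log2 difference of 0.54 (SE 0.25) with overlapping groups. The other MYT1L probes were well above background on 0 or 1 of the DMSO arrays and on 2 or 3 of the DAPT arrays, and gave log2 differences of 0.84, 1.12 and 1.39. No probe matched INSM2, ONECUT3 or EBF4, the remaining relatives looked for.

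ONECUT1, also known as HNF6, joins a cut domain to a homeodomain and is known from liver and pancreas as well as from early neurons. Its probe read -1.04, -1.27, -1.11 and -1.56 in DMSO and 0.28, 0.27, -0.16 and 0.037 in DAPT. The groups stood 0.88 apart at their closest, between DAPT array 3 and DMSO array 1. The means were -1.25 ± 0.23 and 0.11 ± 0.21 (SD, n = 4), a log2 difference of 1.36 (SE 0.19), or 2.56-fold.

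EBF2 is required in mice for the migration and differentiation of several neuron types. Its probe 1 read -1.53, -1.30, -1.74 and -1.96 in DMSO and -0.37, -0.35, -0.49 and -0.53 in DAPT. The 4 DAPT arrays lay within a narrow band, with an SD of 0.089 against 0.28 in DMSO, and the groups were 0.77 apart at their closest. The log2 difference was 1.20 (SE 0.19), or 2.30-fold. The dim probe 2 read -3.25, -2.82, -5.08 and -2.16 in DMSO and -1.74, -2.68, -2.39 and -2.65 in DAPT, with overlapping groups and a difference of means of 0.96 that was not fitted.

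EBF3 is a close relative of EBF2 and acts with it downstream of the neurogenins in Xenopus. Its probe 1 read -1.10, -0.59, -2.26 and -1.35 in DMSO and -0.012, -0.60, -0.86 and -0.26 in DAPT. The groups overlapped, since DMSO array 2 was slightly above DAPT array 2 and clearly above DAPT array 3. The log2 difference was 0.89 (SE 0.34). It moved with array 3 of either condition, to 0.58 without DMSO array 3 and to 1.04 without DAPT array 3. EBF3 probe 2 read -1.42, -1.07, -2.92 and -1.60 in DMSO and -0.52, -0.64, -1.44 and -0.48 in DAPT, a difference of 0.98 (SE 0.39), also with overlap. Here, as in probes 1 and 3, array 3 was the lowest of its condition in both groups. In probe 3, which read -2.11, -1.87, -2.48 and -2.38 in DMSO and -1.34, -1.45, -1.54 and -1.19 in DAPT, the groups were 0.33 apart and the difference was 0.83 (SE 0.19), or 1.78-fold. The 3 EBF3 probes therefore gave nearly the same difference with unlike spreads.

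EBF1, best known for its part in B cell development and also active in neurons of the mouse striatum and the chick spinal cord, had the smallest differences of the 6 measured genes. Its probe 1 read -0.045, 0.010, 0.53 and -0.26 in DMSO and 0.16, 0.65, 1.07 and 0.26 in DAPT, a log2 difference of 0.48 (SE 0.25) with overlapping groups. This difference was 0.30 without DAPT array 3 and 0.64 without DMSO array 3, each the highest array of its group. In probe 2 the values were -1.02, -1.19, -1.18 and -1.40 in DMSO and -0.95, -0.76, -0.94 and -1.01 in DAPT. The groups of this probe were parted by 0.00069, far less than either SD, and differed by 0.28 (SE 0.16). In probe 3 they were -2.10, -2.13, -2.01 and -2.06 in DMSO and -1.72, -1.76, -1.36 and -1.72 in DAPT, 0.25 apart and with a difference of 0.44 (SE 0.16). The 3 probes ranged from 1.21-fold to 1.39-fold, below the fold change of every fitted probe of the other members. The sequences of the probes were not used here, and whether any EBF probe also binds the RNA of another EBF gene was not tested.

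**Figure D1:**
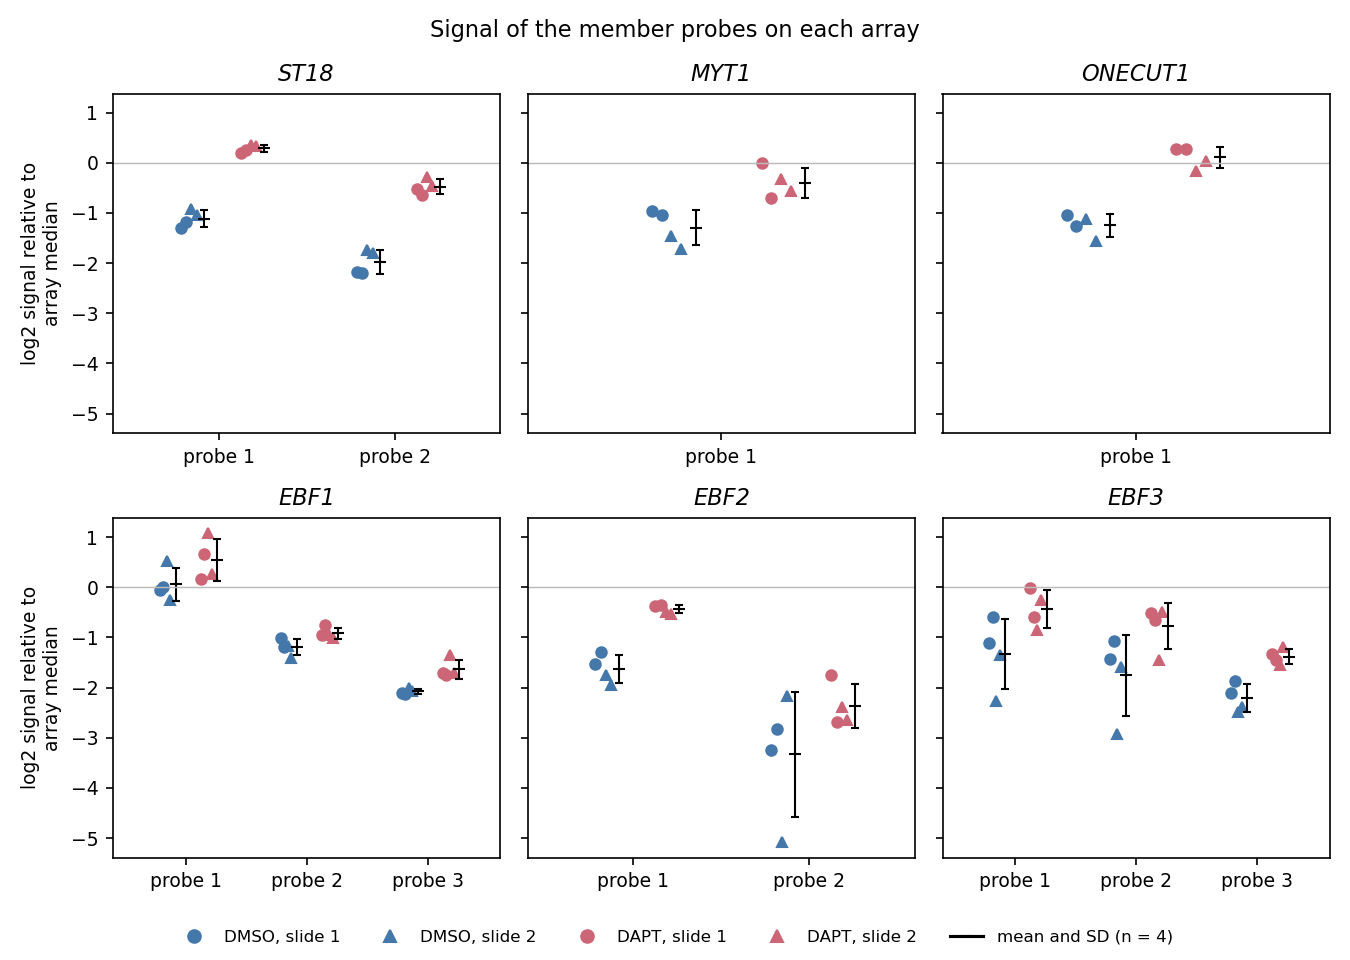
Log2 signal relative to the array median (vertical axis) of the 12 member probes on each array, with DMSO in blue and DAPT in red, circles for slide 1 and triangles for slide 2, and black bars for the mean and SD (n = 4). The 2 ST18 probes, ONECUT1 and probe 1 of EBF2 show wide gaps between the conditions, whereas EBF1 probe 1 and the first 2 EBF3 probes overlap.

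Taken over the 11 fitted probes, the DAPT mean was above the DMSO mean in 11, with log2 differences from 0.28 to 1.50 and a median of 0.89. Over all 31504 fitted probes the median was -0.0093, and 47.7% had a difference above 0. In 8 of the 11 member probes every DAPT array was above every DMSO array, as in 0.803% of all fitted probes. Ranked by their difference, the ST18 probes stood at places 47 and 40, ONECUT1 at 48 and EBF2 at 69 of the 31504, while the EBF1 probes stood at 665, 2228 and 831. MYT1 was at 149, and the EBF3 probes were at 148, 120 and 172. These figures describe genes selected on the same contrast and are no evidence beyond the values themselves. In the limma fit over all probes, 30 probes rose (0.0952%) and 12 fell at an adjusted p under 0.05. Among those that rose were 3 member probes, both of ST18 and that of ONECUT1. Calls of members rest on the contrast that chose them and are no test of them. The members called were 0 without DMSO array 1, DAPT array 2 or DAPT array 4, and also with normexp or without the filter on dim probes. ONECUT1 was not called when any 1 array was left out, nor with the 75th percentile. With the array number as a block, 121 probes were higher (0.384%) and 70 lower, and the members among them numbered 6, the added ones being MYT1, EBF2 probe 1 and EBF3 probe 2.

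The same comparison can be read set by set, if the arrays that carry the same number are read as pairs, given that 4 experiments were run. Of the 44 differences between a DAPT array and the DMSO array of the same number, 43 were above 0. The members were chosen on this contrast, and some of the probes belong to the same gene. The count is therefore a description and no evidence, and it was not made over all fitted probes. The 1 difference not above 0 was that of EBF3 probe 1 in set 2, at -0.014. ST18 was the most even, with 1.49, 1.45, 1.26 and 1.39 in sets 1 to 4 for probe 1. ONECUT1 gave 1.33, 1.54, 0.96 and 1.60, and EBF2 probe 1 gave 1.16, 0.95, 1.25 and 1.43. MYT1 was less even, with 0.96, 0.33, 1.14 and 1.15. Set 2 was the lowest of the sets for MYT1, for EBF2 probe 1 and for all 3 EBF3 probes, but not for ST18, ONECUT1 or EBF1.

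**Figure D2:**
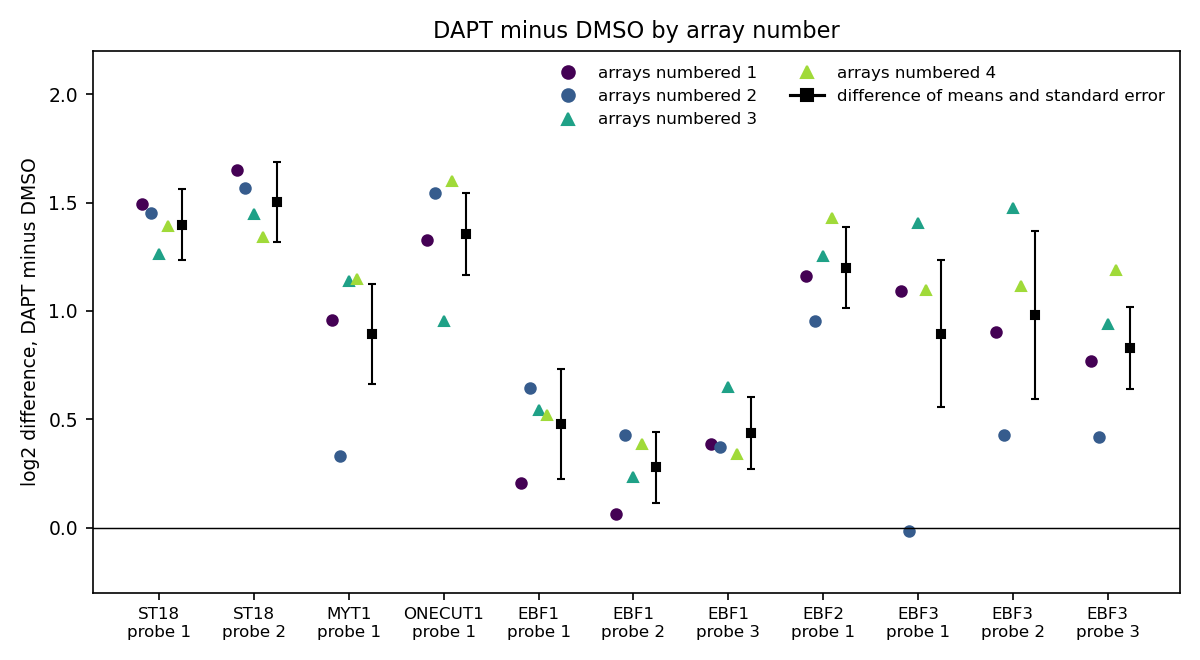
Log2 difference between the DAPT and the DMSO array of the same number (vertical axis) for the 11 fitted member probes, coloured by array number, with the difference of the means and its standard error in black. All points but 1 lie above 0, the exception being EBF3 probe 1 in set 2 at -0.014. The members were chosen on this contrast.

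Only the difference of the response between the slides had played no part in the choice of the genes. The values within each slide come from the arrays that chose them and are a description. On slide 1 the member probes differed between the conditions by 0.25 to 1.61, and on slide 2 by 0.31 to 1.39. The difference was larger on slide 2 for 8 probes and smaller for 3, the latter being both ST18 probes, with 1.47 against 1.33 and 1.61 against 1.39, and ONECUT1, with 1.43 against 1.28. EBF3 differed most between slides, with 0.54 on slide 1 and 1.25 on slide 2 for probe 1, a difference of 0.71 (SE 0.50). For MYT1 it was 0.65 and 1.14, a difference of 0.50 (SE 0.37). For EBF2 probe 1 it was 1.06 and 1.34, a difference of 0.28 (SE 0.29). None of the 11 passed the test of the slide difference (limma interaction term, two-sided, lowest adjusted p = 0.9999), none had an unadjusted p under 0.05, and 0 of 31498 probes were called (0%), with 733 at an unadjusted p under 0.05. With 2 arrays per condition on a slide, the standard errors leave room for differences of the size seen in EBF3.

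The control arrays themselves differed between the slides in opposite directions for different members. In DMSO, ST18 was higher on slide 2 by 0.26 and 0.42 for its probes. EBF3 was lower there, with -0.96, -1.01 and -0.44 for slide 2 minus slide 1, as were MYT1 with -0.58 and EBF2 probe 1 with -0.43. For EBF3, MYT1 and EBF2 the difference between the conditions was also larger on slide 2, whereas ONECUT1, with -0.18 for DMSO on slide 2 minus slide 1, had the smaller difference there. EBF1 probes 1 and 3 were higher in DMSO on slide 2, by 0.15 and 0.084, and their difference between the conditions was larger there too, with 0.53 against 0.42 and 0.49 against 0.38. The level and the difference share the same DMSO arrays. Beside this, the slides also differed in saturation, with 311 to 382 saturated spots per array on slide 1 and 0 on slide 2. The part of the slide in these values was not tested beyond the interaction term.

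**Figure D3:**
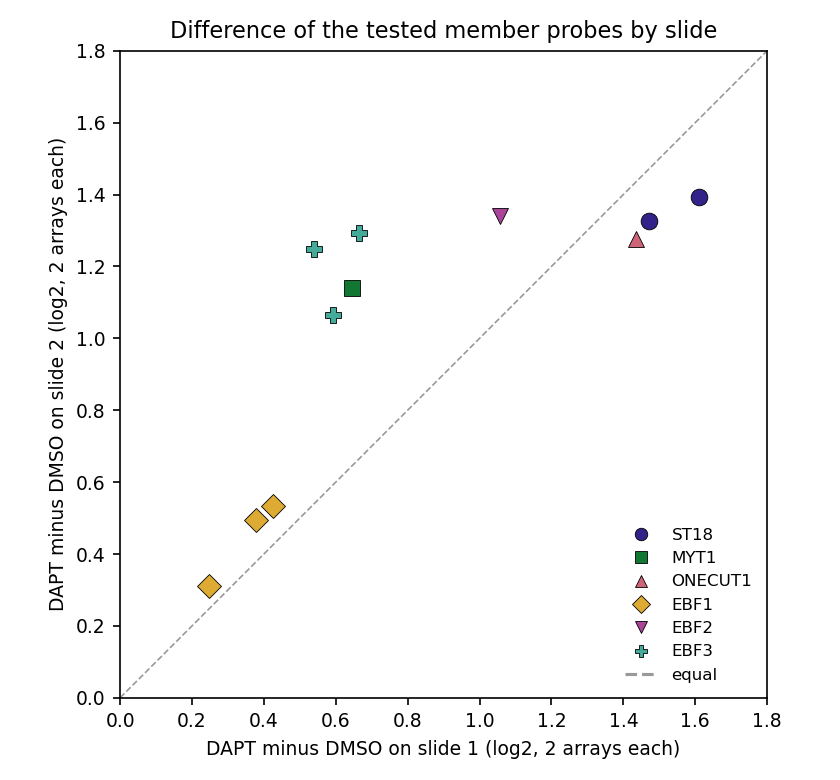
Log2 difference between DAPT and DMSO on slide 1 (horizontal axis) and on slide 2 (vertical axis) for the 11 fitted member probes, each from 2 arrays per condition, with a dashed line where both are equal. ST18 and ONECUT1 lie just below the line, and EBF3 and MYT1 lie well above it.

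Proneural genes were read as part of a list of 23 proneural and neuronal basic helix-loop-helix (bHLH) factors, of which 17 were fitted. The list also holds the NHLH genes, which were named above beside the members, and other bHLH factors. Counted by gene, 0.1% of 18954 genes and accessions rose and 0.0369% fell. Of the 17 bHLH genes, 3 rose and 0 fell (limma, Benjamini-Hochberg adjustment over all probes), and the median log2 difference was 0.19 against -0.011 over all genes. NEUROG1, a proneural gene, rose by 3.15 (SE 0.39, adjusted p = 0.018). NHLH2 rose by 2.06 (SE 0.21, adjusted p = 0.00746) and NHLH1 by 1.83 (SE 0.27, adjusted p = 0.0396), and both are bHLH factors of young neurons. The count was 1 without DMSO array 1, DAPT array 2 or DAPT array 4. The member with the largest difference, ST18, stood below these 3 genes. Among 29 fitted genes of other transcription regulators of newborn neurons, 0 passed the threshold, with a median of 0.16. The largest differences in this list were those of ISL1, a LIM homeodomain factor of motor and sensory neurons, at 1.44 (adjusted p = 0.151), and of BCL11B, a zinc finger factor, at -1.02 (adjusted p = 0.9999). With the array number as a block, ISL1 passed with an adjusted p of 0.00188 and BCL11B with 0.0129.

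The products of young neurons were read from 44 pan-neuronal markers, of which 34 were fitted, 3 rose and 0 fell, with a median of 0.16. NEFM, a neurofilament subunit, rose by 2.22 (SE 0.29, adjusted p = 0.019). TAGLN3, an actin-binding protein of neurons, rose by 1.88 (SE 0.25, adjusted p = 0.0227), and CHGA, a protein of secretory granules, by 1.88 (SE 0.19, adjusted p = 0.00636). The CHGA value is that of its brightest probe, and the paper lists a smaller fold change for this gene. With the array number as a block, 7 of these genes were higher, ELAVL4, STMN2, NEFL and SYT4 being added. SYT4 was well above background on 2 of the 4 DMSO arrays. The count without the block was 0 when DAPT array 2, 3 or 4 was left out, and 1 without DMSO array 1 or DAPT array 1. The summed signal of the pan-neuronal markers, relative to the array median, was 528 to 820.5 in DMSO and 719.3 to 982.8 in DAPT, and these ranges overlapped. How far a larger amount of neuronal RNA accompanies the member values was not tested.

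On the side of the progenitors, 2 of 27 fitted markers fell and 0 rose, with a median of -0.075. Both are repressors induced by Notch. HES5 fell by 5.83 on the log2 scale (SE 0.53, adjusted p = 0.00355), to a signal well above background on only 1 of the 4 DAPT arrays, and HEY1 fell by 1.52 (SE 0.19, adjusted p = 0.0181). Of the 16 fitted forebrain genes 0 passed the threshold. SHH, a ventral signal, had a difference of -1.27 (adjusted p = 0.9999) and NKX2-2, a ventral homeodomain factor, one of -1.23 (adjusted p = 0.9999), and their adjusted p values were 0.0124 and 0.00187 when the array number was a block.

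Since the dissected pieces held other tissues in which some members are known to be active, markers of these tissues were read from the same arrays. None of the 23 fitted genes of cranial neural crest and head mesenchyme passed the threshold (median 0.12), where the largest differences were those of COL3A1, a fibrillar collagen, at -0.91 and PDGFRA, a growth factor receptor, at 0.57. Of 15 fitted genes of the placodes and sensory ganglia 0 passed (median 0.16), with PITX3, a lens factor, at 1.07. Their summed signal was 142.0 to 228.8 in DMSO and 155.8 to 241.6 in DAPT, again with overlap. Endothelium gave 0 of 14 with a median of 0.18 and 10 genes above 0, although its largest differences were those of FLT1 at -0.74 and SOX17 at -0.66. Epidermis gave 0 of 11 with a median of 0.0078 and 6 genes above 0, and its largest differences were GRHL3 at -0.54 and KRT14 at -0.35. In the 3 fitted midbrain and hindbrain genes, none of which passed, HOXB3 differed by 0.31. Blood gave 0 of 10, with a median of 0.38. Its summed signal, mostly of hemoglobins, ran from 12.4 to 513.6 in DMSO and from 19.6 to 482.9 in DAPT, and HBA1 differed by 1.41 (SE 2.46). LMO2, which is on the blood list, differed by 1.05 (adjusted p = 0.0802), and it passed with the array number as a block at 0.00789. The part of these tissues in the member values was not tested.

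**Figure D4:**
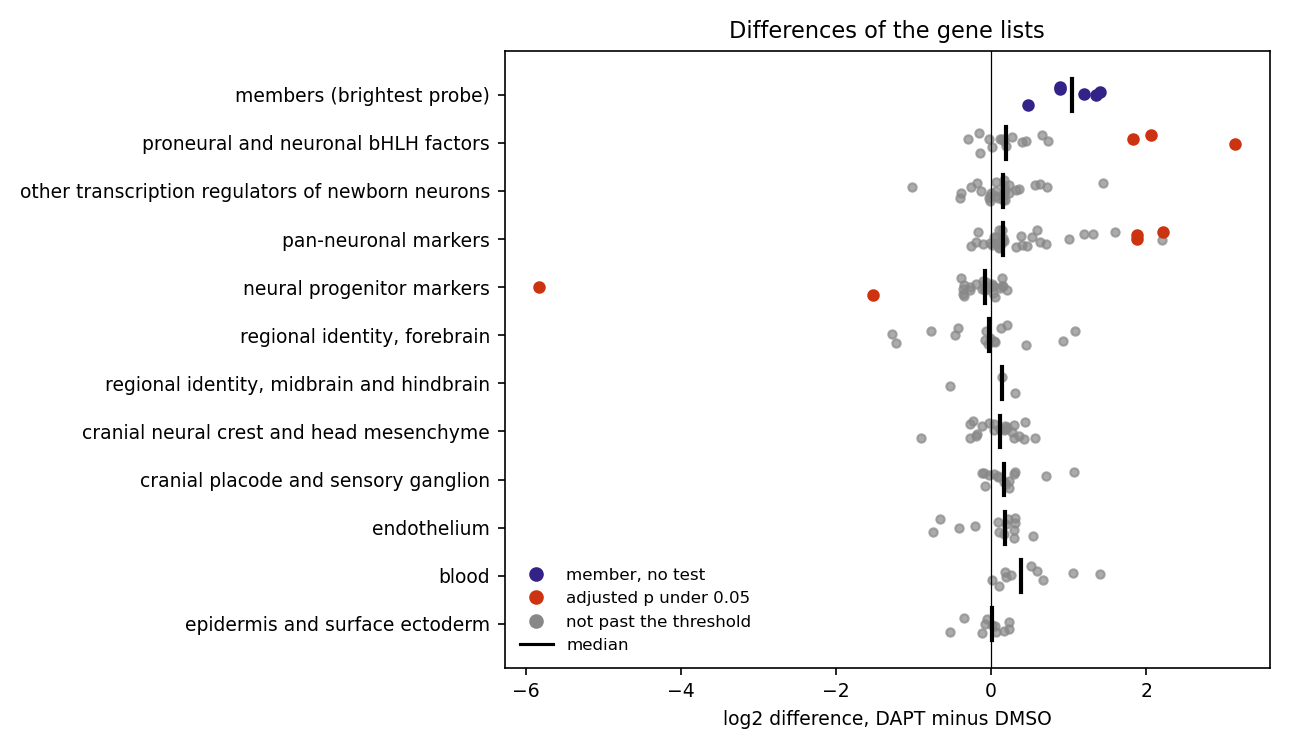
Log2 difference between DAPT and DMSO (horizontal axis) of each fitted gene by list, each gene read from its brightest probe, with members in dark blue, genes with an adjusted p under 0.05 in red, other genes in grey and the median of each list as a black bar. The 6 members, chosen on this contrast, have a median of 1.05, and the called genes of the other lists are 3 bHLH factors, 3 pan-neuronal markers and 2 progenitor markers.

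Genes with the pattern most like each member were looked for among 10024 other genes with a symbol, by the root mean square difference of log2 values centred on the mean of each probe, over the 8 arrays. This measure is 0 for identical patterns, and its median over all candidates was 0.46 to 0.79, depending on the member. It uses the contrast that chose the members and is given as a description. Each member was read from its brightest fitted probe, and each other gene from its closest probe. For ST18 the nearest were ELAVL4, an RNA-binding protein of neurons, at 0.16, DRAXIN, a repellent of growing axons, at 0.22 and LMO2, a LIM-domain cofactor, at 0.23. The ELAVL4 probe in question differed by 1.33 between the conditions, and the other ELAVL4 probes by 1.20 and 1.19.

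ONECUT1 was closest to ALPK1, a protein kinase, at 0.16 and to EBF2 at 0.20, followed by DNASE2B, an acid endonuclease, at 0.20. EBF2 was closest to DNASE2B at 0.15, to ADCYAP1, which encodes the neuropeptide PACAP, at 0.18 and to ISL1 at 0.19. DNASE2B was also the nearest gene to MYT1, at 0.20, followed by SH3TC1 at 0.20 and DCBLD1 at 0.21. A single gene thus appeared beside MYT1, ONECUT1 and EBF2, with a difference of 1.19 of its own. Such a difference goes with the search, which took in the contrast. EBF3 had HIST1H2AH, a histone gene, at 0.20, NPDC1 at 0.25 and CALB2, the calcium-binding protein calretinin, at 0.28. For EBF1 the nearest were SH3GL3 at 0.13, TRMT9B at 0.14 and LGMN, a protease, at 0.14, with differences of 0.24 to 0.39 between the conditions.

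Among the members themselves, each read from its brightest fitted probe, ONECUT1 and EBF2 were the most alike, at 0.20 by the same measure. ST18 stood at 0.26 from ONECUT1 and at 0.28 from EBF2, and MYT1 at 0.26 from EBF2. EBF3, read from probe 1, was farther from all of them, with 0.41 to MYT1 as its smallest and 0.79 to EBF1 as its largest distance. EBF1 had no member nearer than 0.50. The SD of EBF3 probe 1 in DMSO was 0.70, against 0.28 for EBF3 probe 3, and the other probes of a gene were not compared. By these probes alone, the 3 EBF genes were not the closest to each other, and EBF2 lay nearer to ONECUT1 than to EBF3, at 0.44, or to EBF1, at 0.52.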

How the data were processed

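Expression was measured on 8 one-colour Agilent arrays, 4 per condition. The authors deposited for each array the output of Feature Extraction 10.7.1.1, from which the processed signal was used, an intensity after background correction with no normalization between arrays. They also deposited tables with mean raw intensities, mean log2 signals, log2 fold changes and a fold change score, of which only gene annotation was used, with the mean raw intensity as a check of the array mapping. The number of single-sample columns left unused there was 0. GEO lists 1 sample per condition, and each array file of a sample was taken as a replicate, since the methods describe 4 sets of experiments.

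Control spots, and spots marked as non-uniform or population outliers (13 to 44 per array), were left out. Log2 signals were averaged per probe, and the 50th percentile of the spots of each array was subtracted, as in the methods. A probe was fitted if all 4 arrays of DMSO, or all 4 of DAPT, were well above background, which left 31504. The fit used limma 3.58.1 in R 4.3.3 (lmFit, eBayes) without a block, and its two-sided p-values were adjusted over all fitted probes by the Benjamini-Hochberg method. A gene of a list was read from its brightest probe, and lists were only counted. Standard errors are those of this fit, except for the slide differences, whose standard errors are those of the interaction fit. Tables and figures used Python 3.11.15, pandas 2.3.3, numpy 2.4.6 and matplotlib 3.10.9. The fit was also run on simulated data. A minimum recovery was required there only for the larger changes with the slide as a block, and not for the fit without a block. Gene symbols came from the authors' report for 23669 probes, from their second table for 182 and from the RefSeq table (assembly GRCg7b) for 2243. Of the symbols from the report, 22048 had a gene ID in the RefSeq table, and 4059 were replaced by the symbol there, none of them a member. Of the 43603 probes, 17509 had no symbol. No positions or sequences are given.

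Arrays of the same number were taken as pairs, since the methods describe 4 sets of experiments. The deviations of such arrays from their condition means correlated by 0.68, 0.57, 0.77 and 0.50. DMSO arrays 1 to 4 correlated with the DAPT array of the other number on their slide by 0.53, 0.68, 0.42 and 0.46. DMSO array 2 was thus more like DAPT array 1 than DAPT array 2, and the correlations do not settle the pairing on slide 1. After the slide mean was removed the correlation of arrays of the same number was 0.049 on slide 1 and 0.36 on slide 2. Counts with the number as a block are given where they move by over 1.5 times.

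The members and gene lists were chosen with earlier results of these data known. Named are all members, their relatives, the called genes of each list or, with fewer than 2 called, its 2 largest differences, and the 3 genes nearest in pattern to each member. A few genes that this rule names are not reported here.

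Alternatives were the 75th percentile, quantile normalization, no filter, a floor at the lowest signal well above background, slide or array number as a block, outlier spots kept, the mean over probes and each array left out. Normexp on median spot signals with an offset of 50 was added after seeing the data, in place of normexp on mean signals.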

Additional observations from a re-analysis of the deposited data

Results flagged for a closer look

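In the 32 groups of 4 arrays examined among the member and relative probes, 2 arrays lay apart from the others of their condition by more than Dixon's critical value for groups of that size, a limit that chance passes in about 1 group in 20. Both were DAPT array 3. In EBF1 probe 3 it read -1.36, above the next array at -1.72. In EBF3 probe 2 it read -1.44, below the next array at -0.64.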

How the results depend on the processing

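Of 102 values of the 6 members under the alternatives, 98 kept their direction and moved by less than 1 SD, and 0 turned. Much of this count was fixed by the settings. No filter, the floor, either block and the outlier spots kept returned the main values unchanged. Leaving out 1 of the 4 arrays of a condition cannot move a value by 1 SD, so the count is no measure of stability. The 4 that moved were those under normexp, which also shifted the median of all probes to -0.31. ST18 then read 0.92, ONECUT1 0.85, EBF2 0.81 and EBF1 0.095, or 1.23, 1.16, 1.12 and 0.41 relative to that median. Counts of called probes changed far more. Over all probes, 30 higher became 3 with normexp, 7 with no filter on dim probes, 102 with the slide as a block and 121 with the replicate block. The 12 lower became 6 with no filter, 38 with the slide as a block and 70 with the replicate block. The 3 member probes called higher, a description and no test of the members, became 0 with normexp, 0 with no filter and 6 with the replicate block. With 1 array left out, 5 to 20 probes were higher, 6 to 15 lower and 0 to 2 member probes called, with 0 without DMSO array 1, DAPT array 2 or DAPT array 4 and 1 without DMSO array 2, DAPT array 1 or DAPT array 3. Fewer arrays were then fitted. ST18 ranged from 1.34 to 1.46, ONECUT1 from 1.25 to 1.44, EBF2 from 1.09 to 1.31, MYT1 from 0.75 to 1.002, EBF3 from 0.58 to 1.14 and EBF1 from 0.30 to 0.64.

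Of the pan-neuronal markers called higher, 3 became 0 with normexp, 1 with no filter, 6 with the slide as a block, 7 with the replicate block and 0 to 3 with an array left out. The 3 bHLH factors became 1 with normexp, 1 with no filter and 1 to 3 with an array left out. Of the other regulators called higher, 0 became 1 with the slide or replicate block and 0 to 1 with an array left out. Of the markers of other tissues and regions called higher, 0 became 1 with the slide or replicate block and stayed at 0 with an array left out. Genes called lower were not counted in these lists under the alternatives. The cause of these changes was not tested, apart from the array or block itself. The count of member probes without overlap was 7 to 10 throughout. It describes genes chosen on this contrast and is no evidence. The share over all fitted probes, 0.803% in the main setting, was not counted under the alternatives. The slide difference called 0 member probes under its 5 alternatives. Normexp on mean spot signals was not run.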
